A study of Mus musculus with 10 samples.

Results

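Canonical Wnt targets and the ligand Wnt5a were followed in mouse cells at the end of factor-driven reprogramming and in established induced pluripotent stem cells (iPSC). The genes named were the targets Axin2, Sp5, Cdx1, Lef1, Tcf7 and Nkd1, and Wnt5a. Every probe set whose single gene symbol was among these 7 genes was taken, which gave 8 of the 20380 probe sets with 1 gene symbol, or 8 of 22690 in the whole table, for 6 of the 7 genes among 12393 genes in all. Axin2 and Wnt5a had 2 probe sets each, and Sp5, Cdx1, Lef1 and Nkd1 had 1 each. Tcf7 is not analysed here.

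The 10 single-channel arrays fell into 5 groups of 2. One group was iPSC grown in 2i with serum. The second group was iPSC kept together with embryonic fibroblasts of the mouse (MEFs), and whether these feeder cells were taken out before RNA extraction is not given. The other 3 groups came from secondary MEFs in which the Yamanaka factors had been expressed for 32 days: a day 32 sample for which no fraction is named, and cells sorted into Sox2-positive and Sox2-negative fractions. Such secondary cells carry inducible copies of the reprogramming factors, so all 3 day 32 groups share forced factor expression. The labels call the cell type of every sample iPSC. The line of origin, the number of clones, the animals and the separateness of the replicate cultures are not given, so a p-value here reflects just the spread of these arrays, which may be technical. 2i medium as commonly used holds an inhibitor of the ERK pathway and one of the kinase GSK3, though the labels do not list its components.

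In canonical Wnt signalling a secreted ligand binds a Frizzled receptor with Lrp5 or Lrp6 and halts the complex of Axin, Apc and GSK3 that marks beta-catenin for destruction. Beta-catenin then enters the nucleus and joins factors of the TCF/LEF family on target genes, among them feedback inhibitors of the pathway itself. A GSK3 inhibitor has a like effect without a ligand. In mouse pluripotent cells beta-catenin also lifts repression by Tcf7l1 from genes of the naive state. Wnt5a belongs to the ligands known mainly for signalling through Ror2 and other routes that do not need beta-catenin, and it can dampen the canonical route.

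The upstream sequences of Sp5 and Axin2 are shown because both genes are textbook direct targets and yet parted between the iPSC groups below. They are the 250 bases before each gene start from RefSeq on build GRCm38.p6, plus strand, 5′ to 3′, at chr2:70474673-70474922 for Sp5 and chr11:108920099-108920348 for Axin2. Capitals mark the TCF core word AACAAAG and its forms that open with AT, TA or TT in place of AA, searched on either strand. The 4 words cannot coincide at the same place on a strand.
Sp5: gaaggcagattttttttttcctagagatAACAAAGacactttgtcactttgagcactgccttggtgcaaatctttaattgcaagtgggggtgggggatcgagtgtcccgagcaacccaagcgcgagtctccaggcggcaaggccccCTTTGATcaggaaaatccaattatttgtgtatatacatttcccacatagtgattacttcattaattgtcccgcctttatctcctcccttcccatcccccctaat
Axin2: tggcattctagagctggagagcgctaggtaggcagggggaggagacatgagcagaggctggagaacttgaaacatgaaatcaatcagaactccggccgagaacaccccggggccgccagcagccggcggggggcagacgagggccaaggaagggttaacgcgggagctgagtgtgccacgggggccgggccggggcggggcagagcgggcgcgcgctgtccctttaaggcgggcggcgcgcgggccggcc

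The Sp5 stretch held 2 of these words. AACAAAG began 222 bases upstream of the gene start, and ATCAAAG, read on the minus strand and printed as CTTTGAT, began 104 bases upstream. The Axin2 stretch held 0. Of 32851 promoters of the same length 14.8% held at least 1 word and 1.4% at least 2. Of the other members, 1 of 4 Lef1 promoters held a word, and 0 of 2 for Tcf7 and 0 of 1 for Nkd1. The Cdx1 promoter is not reported here, and the promoter set held none for Wnt5a. A match describes letters in this window and is no proof of a bound site, nor does a window without one speak against control from elsewhere.

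All values are the authors' log2 GCRMA values, and a value of 4 served as the filter below which a signal was treated as background. A probe set was tested when it exceeded 4 on at least 2 of the 10 arrays, which 14012 did, and 6 of the 8 member probe sets were among them. Cdx1 passed only through iPSC in 2i and Lef1 only through the Sox2-negative fraction, so a difference involving that group was built into their being tested. Sp5 passed through the 4 iPSC arrays and Wnt5a through arrays of the day 32 groups alone. A probe set was called when its limma adjusted p was under 0.05. Where all arrays of the lower group lay under 4, the fold is a lower bound, taken from 4 and written with the words at least. An exact two-sided permutation of 2 arrays against 2 cannot give a p below 0.33, and the number of arrays limits the precision of every value.

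The arrays differed in their control probe sets. The 3' control for 18S ribosomal RNA read 5.25 to 6.55 on the arrays of iPSC in 2i and of the day 32 sample, and 11.35 to 13.22 on those of iPSC with MEFs and both sorted fractions. The gap between the 3' and 5' controls of Actb was 2.7 to 3.88 in the former arrays, 1.08 and 1.12 in iPSC with MEFs and 0.05 to 0.21 in the sorted fractions. This difference in controls and the culture condition cannot be told apart between the 2 iPSC groups. It is smaller between the fractions and iPSC with MEFs, where it also goes with the groups, and the Sox2-positive and Sox2-negative arrays overlapped in both measures. Sox2 read 9.46 and 10.45 in the Sox2-positive against 4.45 and 4.13 in the Sox2-negative fraction, as the names of the fractions say. Of 13 pluripotent cell markers all lay above 4 on every array outside the Sox2-negative fraction, where 8 and 6 did.

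**Figure D1:**
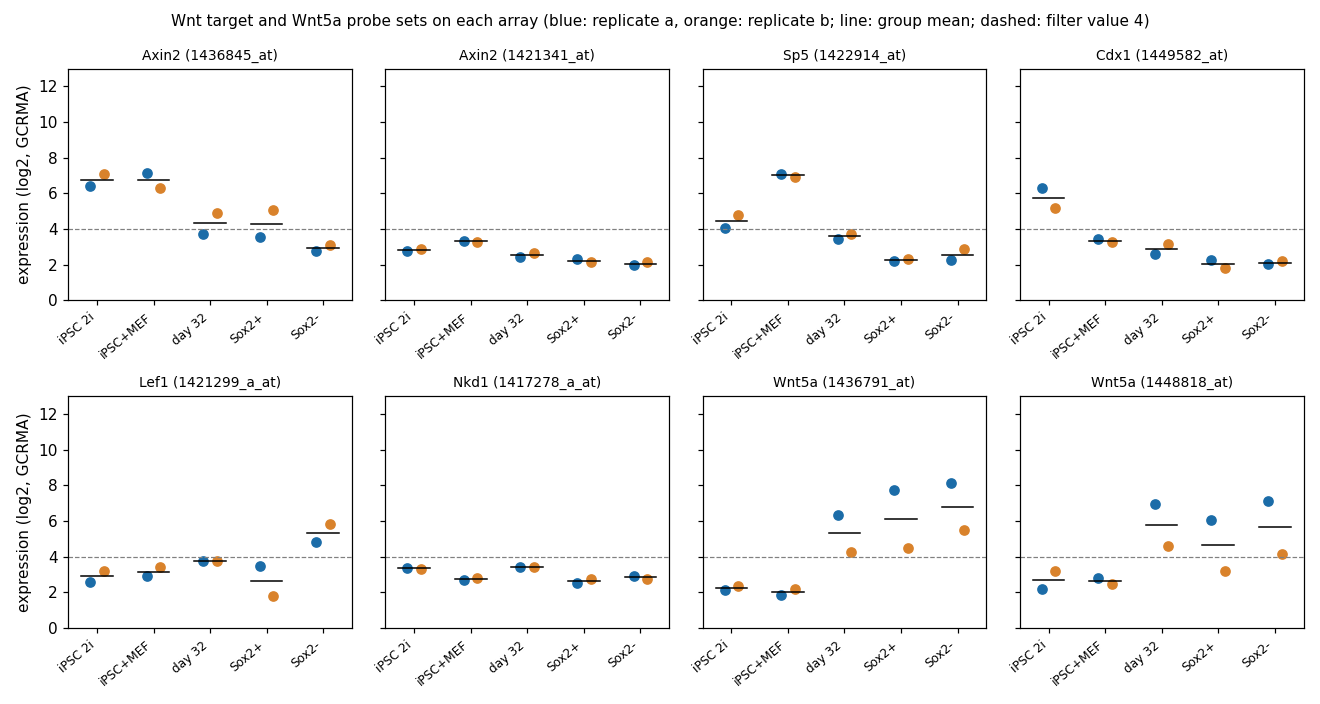
Expression of the 8 member probe sets on the 10 arrays (y axis, deposited log2 values; x axis, the 5 groups). Points are single arrays, lines are group means, and the dashed line is the filter value of 4. Axin2 by its brighter probe set stands high in both iPSC groups, and Sp5 in iPSC with MEFs, with iPSC in 2i just above 4. Cdx1 is highest in iPSC in 2i, Lef1 in the Sox2-negative fraction, and Wnt5a in the 3 day 32 groups.

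Axin2, the scaffold of the destruction complex that is itself switched on by beta-catenin, was the target with the broadest signal. Its brighter probe set, 1436845_at, read 6.43 and 7.1 in iPSC in 2i, 7.16 and 6.29 in iPSC with MEFs, 3.69 and 4.92 for the day 32 sample, 3.54 and 5.05 in the Sox2-positive fraction, and 2.77 and 3.08 in the Sox2-negative fraction. All 4 iPSC arrays lay above all 6 arrays of day 32. The iPSC groups overlapped each other, the day 32 sample overlapped the Sox2-positive fraction, and the Sox2-negative fraction lay lowest. The other probe set, 1421341_at, stayed between 1.97 and 3.31 on all arrays and was not tested. It was highest in iPSC with MEFs, at 3.31 and 3.28, a level treated as background.

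Sp5, a zinc finger factor induced by beta-catenin that in turn dampens many Wnt targets, differed between the iPSC groups. It read 7.07 and 6.93 in iPSC with MEFs, 4.07 and 4.78 in iPSC in 2i, 3.45 and 3.74 in the day 32 sample, 2.2 and 2.33 in the Sox2-positive and 2.26 and 2.85 in the Sox2-negative fraction. Only the 4 iPSC arrays reached 4, and those with MEFs stood clear of the others. The fractions overlapped each other.

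Cdx1, a caudal-type homeobox factor of the posterior body axis, had the opposite order among the iPSC. It read 6.28 and 5.18 in iPSC in 2i and 3.43 and 3.25 in iPSC with MEFs. Values were 2.62 and 3.14 in the day 32 sample, 2.26 and 1.82 in the Sox2-positive and 2.01 and 2.21 in the Sox2-negative fraction. No array outside iPSC in 2i reached 4.

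Lef1, a DNA-binding partner of beta-catenin and a target of the pathway, was detected in Sox2-negative cells, at 4.81 and 5.86. It read 3.46 and 1.81 in the Sox2-positive fraction, 3.75 and 3.77 in the day 32 sample, 2.58 and 3.22 in iPSC in 2i and 2.89 and 3.4 in iPSC with MEFs. All 8 arrays outside the Sox2-negative fraction lay under 4. Nkd1, which binds Dishevelled and restrains the pathway, stayed between 2.52 and 3.45 on every array, so nothing can be said of its direction.

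Wnt5a was at background in both iPSC groups and present after 32 days of factor expression. By its brighter probe set, 1436791_at, it read 2.12 and 2.38 in iPSC in 2i, 1.85 and 2.17 in iPSC with MEFs, 6.35 and 4.27 for the day 32 sample, 7.73 and 4.49 in the Sox2-positive and 8.11 and 5.51 in the Sox2-negative fraction. By its dimmer probe set, 1448818_at, it read 2.21 and 3.21, 2.83 and 2.45, 6.97 and 4.61, 6.06 and 3.22, and 7.13 and 4.18 in the same order. All 6 arrays of day 32 exceeded all 4 iPSC arrays by the brighter probe set, and the 3 groups of day 32 overlapped one another. By the dimmer, Sox2-positive replicate b (3.22) and iPSC in 2i replicate b (3.21) both lay under 4, so they were not measurably apart. Wnt5a had passed the filter only through day 32 arrays, so a higher level there was built into its being tested.

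Within the day 32 groups Wnt5a varied more between replicates than between groups. Replicate a exceeded replicate b by 2.08 in the day 32 sample, 3.24 in Sox2-positive cells and 2.6 in Sox2-negative cells by the brighter probe set, and by 2.36, 2.84 and 2.95 by the dimmer. Axin2 by its brighter probe set ran the other way, with replicate a below b by 1.23, 1.51 and 0.31 in the same groups. In the Sox2-negative fraction both Axin2 values lay under 4, so its direction there is not a measured difference, and the dimmer Axin2 probe set, under 4 throughout, had replicate a above b by 0.18 in Sox2-positive cells. The labels do not say that a letter marks a shared culture or day. Of 13 pluripotent cell markers the mean level was 9.74 and 10.89 in replicates a and b of the day 32 sample, 9.68 and 10.09 in the Sox2-positive and 5.12 and 5.32 in the Sox2-negative fraction, lower in the array with more Wnt5a each time. In the Sox2-negative fraction the means include values under 4, and the count above 4 ran the other way, 8 in replicate a and 6 in replicate b. The part of cell makeup in these differences was not tested, and in bulk RNA fewer cells of a type and less RNA per cell cannot be told apart.

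**Figure D2:**
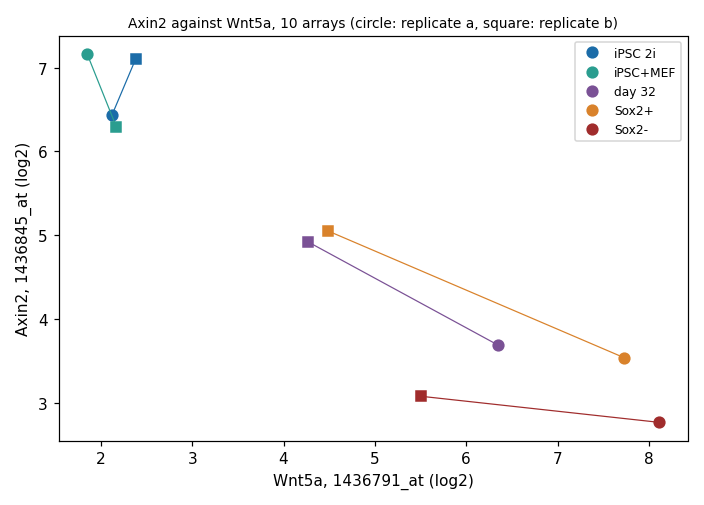
Axin2 (y axis, log2) against Wnt5a (x axis, log2), each by its brighter probe set, on the 10 arrays. Circles are replicate a, squares replicate b, and a line joins the arrays of a group. The 4 iPSC arrays lie at Wnt5a of 1.85 to 2.38, and in each day 32 group replicate a has more Wnt5a and a lower Axin2 value than replicate b, with both Sox2-negative Axin2 values under 4.

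The comparison of iPSC in 2i with iPSC on MEFs sets a medium that commonly holds a GSK3 inhibitor beside a culture with feeder cells. The array controls differ along with the culture, so an effect of the inhibitor was not tested. The targets did not move together. Cdx1 was higher in 2i, with 5.73 ± 0.78 (SD, n = 2) against 3.34 ± 0.13, at least 3.32-fold (difference 2.39, SE 0.38, limma adjusted p = 6.56e-04). Sp5 was lower in 2i, 4.42 ± 0.50 against 7 ± 0.10, or 5.96-fold (SE 0.32, limma adjusted p = 1.86e-04). Axin2 differed by 0.04 (SE 0.57, limma adjusted p = 0.955), and Lef1 and Wnt5a lay under 4 in both groups.

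In all 2 of 6 member probe sets were called, 1 higher and 1 lower, where 61.6% of all 14012 were called, 50.4% higher and 11.2% lower in 2i. The median of all probe sets differed by 0.93 (log2) between these groups. Relative to that median Cdx1 lay 1.46 above, Sp5 lay 3.50 below and Axin2 lay 0.89 below. With quantile normalization Cdx1 differed by 1.40 (limma adjusted p = 0.0118), Sp5 by -3.26 (limma adjusted p = 1.29e-04) and Axin2 by -0.99 (limma adjusted p = 0.213), and the split of all calls became 2957 higher and 2704 lower. With median centring it was 2745 higher and 3890 lower. Both member calls held under every alternative run, and the sign of the Axin2 difference did not. Cdx1 had passed the filter only through iPSC in 2i, so a difference was built into its being tested.

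Other inhibitors and targets of the pathway also went both ways between the iPSC groups. Notum, a secreted enzyme that strips the lipid from Wnt ligands and is a feedback target, read 6.36 and 7.58 in 2i against 3.98 and 4 with MEFs, 7.89-fold higher (limma adjusted p = 2.57e-04). Bmp4, a BMP ligand that answers to Wnt in several tissues, read 4.97 and 7.09 against 9.46 and 9.27, 10.1-fold lower (limma adjusted p = 0.00199). The list of other canonical targets had 5 of 16 tested genes higher and 6 lower, around a median of 0.48 beside 1.01 over all 8599 genes, of which 53% were called higher and 8.23% lower. The split became 1 higher and 6 lower with quantile normalization and 1 and 7 with median centring. The 11 calls became 4 without iPSC with MEFs replicate b, 5 without its replicate a and 5 without iPSC in 2i replicate a. Among 8 naive genes known to be repressed by Tcf7l1, 5 were called higher in 2i and 0 lower (median 1.40), with 2 higher and 1 lower under median centring and 3 calls without iPSC in 2i replicate a or without iPSC with MEFs replicate b. Tfcp2l1 was 5.92-fold and Tcl1 6.41-fold higher (limma adjusted p = 5.62e-04 and 0.00181). Nr5a2 was 3.42-fold higher (limma adjusted p = 0.00292), a call lost with quantile normalization and with median centring. Esrrb was 3.41-fold higher by the probe set used, but its other tested probe set went the opposite way, and the call was lost with median centring and without iPSC in 2i replicate a or iPSC with MEFs replicate b. Tcf7l1 itself differed by 0.08 by its brighter probe set (limma adjusted p = 0.89) and by -1.59 by the dimmer (limma adjusted p = 0.00184).

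Of 3 genes for ligand secretion and agonists 1 was called higher in 2i and 2 lower. Wls, the carrier that brings Wnt ligands to the cell surface, read 5.09 and 5.2 in 2i against 3.05 and 2.42, at least 2.21-fold higher (limma adjusted p = 8.67e-04). Ror2, the receptor best known for Wnt5a, was 3.58-fold lower in 2i (5.80 ± 0.61 against 7.64 ± 0.08, limma adjusted p = 0.00139). The R-spondin gene Rspo1 was at least 1.14-fold lower, with 4.18 and 4.21 with MEFs. Of 13 receptor genes 2 were called higher and 2 lower, beside 53% and 8.23% of all genes. Both higher calls, Fzd6 and Fzd9, were lost with quantile normalization and with median centring, where 0 receptors were higher and 6 and 7 were lower.

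Single relay and nuclear partner genes held large differences between the iPSC groups. Counts in these lists stand beside 53% of all 8599 genes called higher in 2i and 8.23% called lower. Pygo2, a nuclear cofactor of beta-catenin, read 10.51 and 10.51 in 2i against 6.72 and 6.95 with MEFs, 12.8-fold higher (limma adjusted p = 3.45e-05). Dvl2, a Dishevelled protein that passes the signal on from Frizzled, read 7.91 and 7.49 against 3.92 and 4.32, higher by 3.58 in log2 units (limma adjusted p = 1.55e-04). Bcl9, which links Pygo proteins to beta-catenin, was 4.50-fold higher (limma adjusted p = 6.63e-04). These 3 calls held under every alternative run. Of 11 nuclear partners 5 were called higher and 0 lower, but 3 higher with quantile normalization or without iPSC in 2i replicate b, and 2 higher and 2 lower with median centring, under which Ctbp1, Tle3 and Tcf7l2 lost their calls. The 3 Tle3 probe sets ranged from -1.02 to 3.45. Of 14 genes of the destruction complex and its relay 3 were higher and 3 lower, or 1 and 7 with median centring, and 3 were called without iPSC in 2i replicate b or iPSC with MEFs replicate a. Csnk1d, a casein kinase, was 4.36-fold lower by its brightest probe set (limma adjusted p = 0.00102), while its 5 probe sets ranged from -2.12 to 3.36. Of the 32 Wnt pathway genes with several tested probe sets, 12 had probe sets of opposite sign in this comparison. The number was 11 and 10 for the Sox2-positive and Sox2-negative fractions against iPSC with MEFs. It was 8 between the fractions and 4 between the day 32 sample and iPSC in 2i.

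Of 15 tested fibroblast and feeder genes 3 were called higher in 2i and 1 lower, beside 53% and 8.23% of all genes, and 0 higher and 4 lower with median centring or 0 and 2 with quantile normalization. Without iPSC with MEFs replicate b 1 was higher and 1 lower. Of all 19 fibroblast and feeder markers 8 and 6 lay above 4 with MEFs and 4 and 8 in 2i, and their summed level (linear scale) was 780 to 938 against 470 to 1013. Single markers went both ways. Col1a2 lay above 4 only with MEFs, at 5.59 and 5.27 against 2.45 and 2.44. Pdgfrb was called higher in 2i by both its tested probe sets, with differences of 0.92 and 2.38. The part of feeder RNA in these results was not tested. Of 7 mesoderm and primitive streak genes with a probe set, 2 were tested and 1 was called higher in 2i, beside 53% of all genes. That gene, Eomes, read 6.78 and 6.71 in 2i against 4.79 and 4.09 with MEFs. Of all 7 genes 2 and 3 lay above 4 in 2i and 2 and 1 with MEFs.

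**Figure D3:**
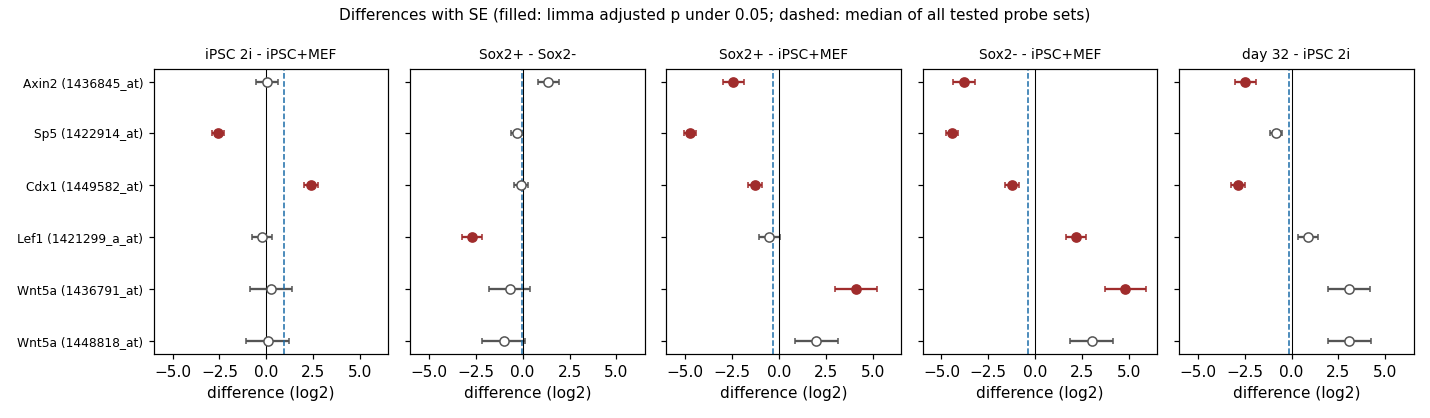
Differences of the 6 tested member probe sets (x axis, log2, with SE) in the 5 comparisons. Filled points have a limma adjusted p under 0.05 and the dashed line is the median of all 14012 probe sets. Sp5 and Cdx1 lie on opposite sides between the iPSC groups, and the fractions share low Axin2 and Sp5 and high Wnt5a against iPSC with MEFs.

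Between the fractions Lef1 was the only member called, and it had passed the filter only through the Sox2-negative fraction. It was lower in Sox2-positive cells, 2.64 ± 1.17 (SD, n = 2) against 5.34 ± 0.74, at least 2.52-fold (difference -2.70, SE 0.54, limma adjusted p = 0.0161). The call was lost without Sox2-positive replicate b (0.0684), without Sox2-negative replicate b (0.0637) and with the compared arrays alone (limma adjusted p = 0.113). Axin2 read 4.30 ± 1.07 against 2.92 ± 0.22, a difference of 1.37 (SE 0.57, limma adjusted p = 0.153), with no overlap. Without Sox2-positive replicate a it was 2.12 (limma adjusted p = 0.0488). Wnt5a differed by -0.70 (SE 1.11) and by -1.01 (SE 1.15) by its probe sets, with limma adjusted p of 0.73 and 0.614. Sp5 and Cdx1 lay under 4 in both fractions. So 1 of 6 was called, and it was lower, beside 11.3% of all probe sets, 6.19% higher and 5.07% lower.

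Regulators of the pathway differed between the fractions too. Tcf7l1, the TCF family repressor of naive genes, read 7.16 and 8.68 in Sox2-positive against 5.87 and 6.18 in Sox2-negative cells, 3.72-fold higher (limma adjusted p = 0.0317), and by its other probe set 2.40-fold higher (0.0312). The former call was lost in 6 of 12 alternatives, among them with no filter and without Sox2-positive replicate b, Sox2-negative replicate a or Sox2-negative replicate b. Of 8 naive genes known as its targets 6 were called higher and 0 lower (median 4.35, beside -0.02 over all genes), such as Esrrb (47.5-fold) and Tfcp2l1 (at least 7.24-fold). The fractions were sorted by Sox2, itself a pluripotency gene. Of 13 pluripotent cell markers 12 were called higher, beside 6.66% of all 8599 genes. Sox2 is 1 of these 13, so its difference was fixed by the sort. Pou5f1, also among them, overlapped, with 10.92 and 10.38 in Sox2-positive against 10.06 and 11.11 in Sox2-negative cells. Wif1, a secreted Wnt binder, read 4.22 and 6.64 in Sox2-negative against 2.75 and 1.6 in Sox2-positive cells, at least 2.69-fold lower in the latter (limma adjusted p = 0.0176). That call was lost without Sox2-positive replicate b and with the compared arrays alone (0.13 at the highest).

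Apcdd1, a membrane inhibitor of Wnt reception, was 3.53-fold lower in Sox2-positive cells, 9.54 and 9.15 against 11.33 and 11 (limma adjusted p = 0.0107), a call lost without Sox2-positive replicate b, with array weights and with the compared arrays alone. Among receptors Ryk, which binds Wnt5a, was 2.94-fold lower (5.95 ± 0.10 against 7.51 ± 0.26, limma adjusted p = 0.00627) and Fzd7 2.90-fold higher (8.26 ± 0.37 against 6.73 ± 0.39, limma adjusted p = 0.0165). The other Ryk probe set differed by -0.15 and was not called. Ryk lost its call with the compared arrays alone, and Fzd7 did so there, with array weights and without replicate b of either fraction. In the lists 1 of 13 receptors was higher and 2 lower, and of 7 antagonists 0 were higher and 2 lower. With the compared arrays alone none of these 5 was called, and with array weights 1 receptor and 1 antagonist were. Receptor calls became 1 without replicate b of either fraction, and antagonist calls 0 without Sox2-positive replicate b. Of 14 genes of the destruction complex and its relay 0 were called by limma at an adjusted p under 0.05, and 1 without replicate a of either fraction. Over all 8599 genes 6.66% were called higher and 5.44% lower.

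Against iPSC with MEFs both fractions had lower Axin2 and Sp5 and higher Wnt5a, in comparisons that share their control arrays. For the Sox2-positive fraction Sp5 was at least 8-fold lower (SE 0.32, limma adjusted p = 8.87e-04). Axin2 was 5.39-fold lower (SE 0.57, limma adjusted p = 0.0123) and Wnt5a at least 4.32-fold higher by its brighter probe set (SE 1.11, limma adjusted p = 0.0211). By the dimmer Wnt5a was at least 1.56-fold higher without passing (limma adjusted p = 0.21). Cdx1 was called lower (limma adjusted p = 0.0279) with both groups under 4, so no fold is given. Lef1, also under 4 in both, differed by -0.51 (limma adjusted p = 0.497). In all 1 of 6 was called higher and 3 lower, beside 32.8% of all probe sets, 7.38% higher and 25.4% lower, and an all-probe-set median of -0.34. With quantile normalization the calls over all probe sets were 1264 higher and 1450 lower.

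The Sp5 call held under every alternative run. Axin2 lost its call without the a array of iPSC with MEFs (limma adjusted p = 0.0975) or Sox2-positive replicate a (0.0728). Wnt5a lost it without either array of iPSC with MEFs (limma adjusted p = 0.111 and 0.0851) or Sox2-positive replicate a, where the difference of 4.10 became 2.48 (0.127). Cdx1 lost it when any 1 of the 4 arrays was left out (limma adjusted p = 0.0518 to 0.137).

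For the Sox2-negative fraction Sp5 was at least 8-fold lower (limma adjusted p = 1.09e-04) and Axin2 at least 6.61-fold lower (limma adjusted p = 0.00106), and both calls held under every alternative run. Wnt5a was at least 7.01-fold higher by its brighter probe set (SE 1.11, limma adjusted p = 0.00755), with 0.0519 without the a array of iPSC with MEFs. By the dimmer it was at least 3.15-fold higher (limma adjusted p = 0.0576), and 0.0199 without Sox2-negative replicate b. Lef1 was at least 2.52-fold higher (limma adjusted p = 0.0102), a call lost without the a array of iPSC with MEFs (0.0754) or Sox2-negative replicate b (0.0628). Cdx1 was called lower at background (limma adjusted p = 0.026) and lost that call with array weights and when any 1 of the 4 arrays was left out (0.0552 to 0.122). In all 2 of 6 were called higher and 3 lower, beside 45% of all probe sets, 13.4% higher and 31.6% lower, or 2320 higher and 2630 lower with quantile normalization. Of the members called higher, Lef1 had passed the filter only through this fraction and Wnt5a only through arrays of the day 32 groups.

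Of 3 genes for ligand secretion and agonists 0 were higher and 2 lower in each fraction against iPSC with MEFs. Of 13 receptors 0 were higher and 3 lower in the Sox2-positive and 1 higher and 5 lower in the Sox2-negative. Over all 8599 genes 5.93% were called higher and 29.1% lower in the Sox2-positive, and 11.9% higher and 35.2% lower in the Sox2-negative. The 3 receptor calls in the Sox2-positive fraction became 1 with quantile normalization or without iPSC with MEFs replicate a, and 2 without its replicate b or Sox2-positive replicate a. Porcn, which adds the lipid that Wnt ligands need to leave the cell, read 8.91 and 8.9 in iPSC with MEFs, 4.81 and 6.39 in the Sox2-positive and 4.58 and 4.56 in the Sox2-negative fraction. Its level was 9.88-fold and 20.2-fold lower in the fractions (limma adjusted p = 0.00190 and 3.08e-04). Wnt5b, the close relative of Wnt5a, went against it, at least 3.27-fold lower in either fraction (limma adjusted p = 0.00450 and 0.00299). Wnt5a and Wnt5b were the only 2 of 19 Wnt ligand genes with a probe set that passed the filter. Ror2 was 2.18-fold and 4.26-fold lower (limma adjusted p = 0.0306 and 0.00144), and Fzd7 2.41-fold and 6.99-fold lower (limma adjusted p = 0.0141 and 3.15e-04). The calls of Ror2 and Fzd7 in the Sox2-positive fraction were lost with quantile normalization and without the a array of iPSC with MEFs. Ror2 lost it also without iPSC with MEFs replicate b or Sox2-positive replicate b, and Fzd7 without Sox2-positive replicate a.

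Among targets Bmp4 was 18.9-fold lower in the Sox2-positive and at least 41.2-fold lower in the Sox2-negative fraction (limma adjusted p = 0.00244 and 2.98e-04). Of the 16 other canonical targets 1 was higher and 8 lower in the Sox2-positive fraction, and 4 higher and 9 lower in the Sox2-negative. The 9 calls in the Sox2-positive fraction became 5 with quantile normalization, 2 without iPSC with MEFs replicate a, 3 without its replicate b and 5 without Sox2-positive replicate a. The medians were -1.26 and -1.51, beside -0.45 and -0.50 over all 8599 genes, of which 29.1% and 35.2% were called lower and 5.93% and 11.9% higher. Nkd2, a relative of Nkd1, read 4.06 and 4.26 in the Sox2-positive and 4.64 and 5.31 in the Sox2-negative fraction against 3.09 and 2.72, at least 1.12-fold and 1.97-fold higher (limma adjusted p = 0.0130 and 8.95e-04). The former call was lost without iPSC with MEFs replicate b. Apcdd1 was 8.69-fold higher in the Sox2-negative fraction (limma adjusted p = 2.86e-04). It was also called higher in the Sox2-positive, by 1.30 in log2 units (limma adjusted p = 0.0167), a call lost in 3 of 12 alternatives. The corepressor gene Tle4 was 9.22-fold and 17.3-fold lower in the fractions (limma adjusted p = 8.87e-04 and 1.09e-04). Tcf7l1 was 2.65-fold lower in the Sox2-positive and 9.85-fold lower in the Sox2-negative (limma adjusted p = 0.0434 and 7.99e-04). The former call was lost in 6 of 12 alternatives, among them quantile normalization. By its other probe set Tcf7l1 was 4.69-fold and 11.3-fold lower in the same order (limma adjusted p = 0.00176 and 1.66e-04). Fibroblast markers above 4 numbered 3 and 2 of 19 in the Sox2-positive and 8 and 11 in the Sox2-negative fraction, and their part in these values was not tested.

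**Figure D4:**
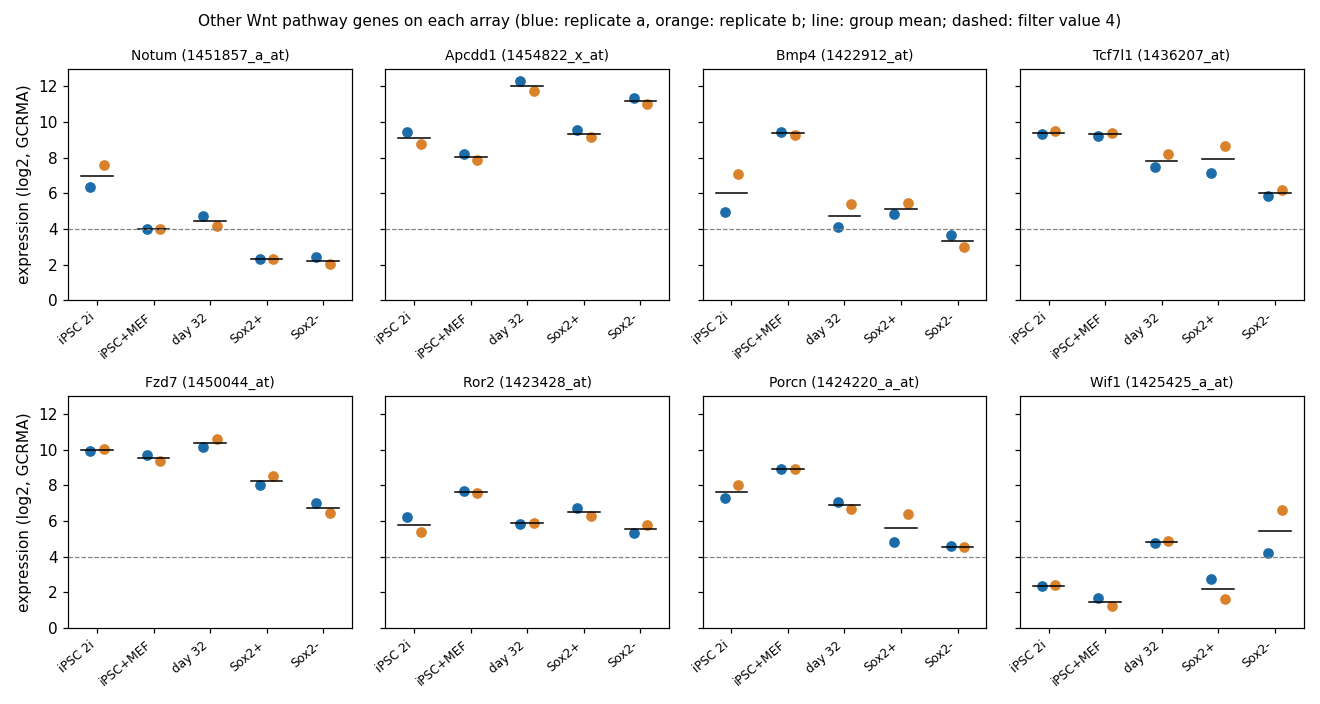
Expression of 8 other Wnt pathway genes on the 10 arrays (y axis, deposited log2 values; x axis, the 5 groups), with points for arrays, lines for group means and a dashed line at 4. Notum is highest in iPSC in 2i and Bmp4 in iPSC with MEFs, while Porcn, Fzd7 and Tcf7l1 have their lowest means in the Sox2-negative fraction.

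The day 32 sample had lower Axin2 and Cdx1 than iPSC in 2i, the group through which alone Cdx1 had passed the filter. Cdx1 was at least 3.32-fold lower (difference -2.85, SE 0.38, limma adjusted p = 0.00482) and Axin2 5.50-fold lower (difference -2.46, SE 0.57, limma adjusted p = 0.0378). Sp5 differed by -0.83 (SE 0.32, limma adjusted p = 0.153). Lef1, under 4 in both groups, differed by 0.86 (limma adjusted p = 0.379). Wnt5a read at least 2.48-fold and 3.46-fold higher by its probe sets, each by 3.06 and 3.08 in log2 units with no overlap, yet neither passed (limma adjusted p = 0.135 and 0.145). With array weights both did (0.0362 and 0.0435). In all 0 of 6 were called higher and 2 lower, beside 6.31% of all probe sets, 3.95% higher and 2.36% lower. Axin2 lost its call with quantile normalization, with no filter, with the compared arrays alone and without day 32 replicate a or either array of iPSC in 2i (0.0633 to 0.297). Cdx1 lost it with the compared arrays alone (0.0519) and without day 32 replicate a (0.0545).

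Feedback inhibitors moved in both directions at day 32. Notum read 4.75 and 4.19 against 6.36 and 7.58 in iPSC in 2i, 5.66-fold lower (limma adjusted p = 0.00991), a call lost with the compared arrays alone (0.0685). Apcdd1 read 12.28 and 11.76 against 9.45 and 8.75, 7.57-fold higher (limma adjusted p = 0.00295), under every alternative run. Of the 16 other canonical targets 5 were called higher and 1 lower, beside 5.04% and 2.22% of all genes. The 6 calls became 3 with the compared arrays alone, 2 without day 32 replicate a, and 3 and 4 without replicates a and b of iPSC in 2i. Cd44, an adhesion receptor that is abundant in fibroblasts, was at least 30.8-fold higher (limma adjusted p = 0.00984). Its other probe set differed by 2.18 and was not called. The Cd44 call was lost without day 32 replicate a or iPSC in 2i replicate a. Of 19 fibroblast markers 14 lay above 4 on each day 32 array against 4 and 8 in iPSC in 2i, and their summed level was 1991 to 2249 against 470 to 1013. Their part in these values was not tested.

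Genes with the most similar pattern over the 10 arrays were sought among the 14012 probe sets for the brightest tested probe set of each member. Closest to Axin2 were Zfp418 (Pearson r = 0.99), Smpd4 (0.97) and Ttpa (0.97). Sp5 was matched by Trim27, Emd and Tubb5 (0.99 each). For Cdx1 they were Rasip1 (0.98), Ubd (0.97) and Bcam (0.97), for Lef1 Fgf18 (0.95), Ecpas (0.93) and Rab3d (0.92), and for Wnt5a Hoxa9 (0.94), Mbp (0.93) and Cldnd1 (0.92). These values are the best of many, the arrays share 5 group means, and they describe likeness of pattern alone.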

How the data were processed

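Analysis started from the deposited series table, unaltered. Its log2 expression values were made by the authors with GCRMA and the affy package, per the submitters' processing notes, with no version given. The sources used here do not say if the arrays were normalized together. RNA was extracted with Trizol and amplified with either of 2 NuGEN kits, per the labels' protocols, without a record of which array had which.

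Of 22690 probe sets, 64 were controls, 691 had several symbols and 1555 none, which left 20380, named from GEO's platform annotation. Those above 4 on at least 2 arrays (14012) entered a linear model in limma 3.58.1 (R 4.3.3) with a mean per group over all 10 arrays and moderated variances (5 residual and 4.24 prior degrees of freedom), and p was adjusted over the 14012 by the Benjamini-Hochberg method. In the gene lists a gene was represented by its tested probe set with the highest mean (8599 genes). Members, lists and rules were chosen with earlier results of these data known. Members with a tested probe set were named in each comparison. From each Wnt list up to 4 called genes by smallest p could be named, and those described are a selection made after their values were seen. Marker genes, second probe sets and the Axin2 promoter were named after their values were seen. The model was tested on simulated arrays. Alternatives were other normalizations and filters, 1 probe set per gene, array weights, a replicate block, the compared arrays alone and each array left out. Figures were drawn with matplotlib 3.10.9.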

Additional observations from a re-analysis of the deposited data

How the results depend on the processing

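Of 350 member values recomputed under the alternatives (30 results), 296 kept their direction and side of the threshold, 28 lost a call, 6 gained one and 20 changed sign, and of 1147 for named pathway genes (97 results) 993 kept both, 153 lost a call and 1 changed sign. The differences between the iPSC groups that changed sign were Axin2 (-0.99 with quantile normalization, -0.98 with median centring, -0.40 to 0.47 over the arrays left out), Wnt5a by the brighter probe set (-0.22 and -0.78), Wnt5a by the dimmer (-0.46 and -0.95, and -0.43 to 0.57), Lef1 (-0.57 to 0.075) and the corepressor gene Ctbp1 (-0.08 with median centring). Between the fractions, leaving out arrays gave -0.29 to 0.15 for Cdx1, -0.58 to 0.0050 for Sp5, -2.32 to 0.92 and -2.49 to 0.46 for the Wnt5a probe sets, and -1.34 to 0.32 for Lef1 in the Sox2-positive fraction against iPSC with MEFs. Of these only Ctbp1 was called in limma (0.93, adjusted p 0.00856), and the cause was not tested. Member probe sets called at day 32 against iPSC in 2i (2) became 1 with quantile normalization, 1 with no filter, 4 with array weights, 0 with the compared arrays alone and 0 to 2 over arrays left out. Between the fractions (1) they became 0 with a filter above 5, where Lef1 was not tested, 0 with the compared arrays alone and 0 to 2 over arrays left out. Against iPSC with MEFs, arrays left out gave 1 to 3 for the Sox2-positive and 2 to 4 for the Sox2-negative fraction. Of all probe sets, calls at day 32 (884) became 520 with quantile normalization, 1990 with array weights, 302 with the compared arrays alone and 116 to 826 over arrays left out. Between the iPSC groups 8634 became 5661 with quantile normalization and 5253 with 1 probe set per gene. For the Sox2-negative fraction 6307 became 4087 with 1 probe set per gene and 3739 to 5487 over arrays left out, and for the Sox2-positive 4600 became 2714 with quantile normalization and 1662 to 4117. Between the fractions 1578 became 451 with array weights, 321 with the compared arrays alone and 649 to 1668. With the replicate letter as a block, Wnt5a by the dimmer probe set in the Sox2-negative fraction against iPSC with MEFs (3.02) had a limma adjusted p of 0.0222, so 6 member probe sets were called there in place of 5. Differences of a over b correlated at 0.31 and 0.20 between the day 32 sample and the fractions, 0.05 between the fractions and -0.07 to 0.05 elsewhere. The labels do not say what a letter marks, and whether arrays of the same letter share a culture was not tested.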
